A study of Mus musculus with 8 samples.

Results

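The 10 genes described here are markers of satellite cells, the resident stem cells of skeletal muscle, and regulators of myogenesis: Pax7, Myf5, Myod1, Myog, Myf6, Cdh15, Vcam1, Ncam1, Sdc4 and Cdkn1a. They were found by gene symbol among 24341 listed genes, and all 10 were present once in each of the 8 tables. The libraries came from tibialis anterior, a fast muscle of the lower leg, of 8 mice aged 12 weeks that are described as male and were fed chow. The 4 knockout animals, Carm1 skm-/-, carried floxed Carm1 and the HSAcre transgene (Tg/0), and the 4 controls, Carm1 skm+/+, carried floxed Carm1 with no Cre (HSAcre 0/0). Cre under the human skeletal actin promoter is active in muscle fibres and not in satellite cells, so Carm1 was deleted in the fibres that make up most of the tissue, and presence of Cre and loss of Carm1 cannot be told apart. The comparison asks how transcript levels in the muscle differ between the genotypes.

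In adult muscle, Pax7 marks quiescent satellite cells, and on activation these cells raise Myf5 and Myod1, divide, and then express Myog as they withdraw from the cell cycle and differentiate. Myf5, Myod1, Myog and Myf6 (also called MRF4) are the myogenic regulatory factors, basic helix-loop-helix proteins that bind E-boxes together with ubiquitous partner proteins and act with MEF2 factors. Mature fibres also transcribe Myf6, Myod1 and, after loss of the nerve supply, Myog, so a bulk sample of muscle holds RNA of these genes from both sources. CARM1 is an arginine methyltransferase known as a coactivator of MEF2 and myogenic factors in cultured muscle cells and as an enzyme that methylates PAX7 in satellite cells.

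Values are FPKM, fragments normalized to transcript length and to library size, divided by a factor per library and called scaled FPKM. As the unit is per length, levels can be set side by side between genes. Differences are knockout minus control on log2(scaled FPKM + 1), which understates changes of low genes, and were tested with limma across the 11096 genes that reached 1 scaled FPKM in 4 or more libraries. Read depth is not known, but the steps between low values put every library at 80.9% or more of the deepest one. Carm1 was lower in each knockout library than in each control. Its mean was 30.5 ± 4.82 in the control animals against 15.4 ± 2.57 in the knockout animals, in scaled FPKM (SD, n = 4 each; exact permutation p = 0.0286, 2-sided, the smallest that 70 assignments allow). Although all animals are labelled male, control 1, knockout 2 and knockout 4 held Xist at 19.6, 22.9 and 20.5 FPKM, against at most 0.0662 FPKM in the other 5, and the Y-linked gene Eif2s3y at no more than 0.112 FPKM, against at least 42.3 FPKM in the other 5. For this reason a further fit carried a term for Xist (the Xist-adjusted fit) and another kept only the 5 libraries that lack it, where 0.0094% of genes were called. Of 12 fibre markers 6 could be used, and their sum was 51244 to 67950 scaled FPKM in controls and 36112 to 46551 in knockouts, without overlap. Of single genes tested, 8.31% were without overlap. Taken singly, 2 of the 6 markers were higher in knockouts and 0 were called, with a median difference of -0.16. With quantile normalization 4 were higher, with a median of 0.11. The part of the summed level in the results below was not tested. The other 6, among them Acta1 and Ckm, had a failed estimate in at least 1 library.

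None of the 10 genes passed the test between the genotypes. With limma and Benjamini-Hochberg adjustment over all genes, 0 of the 8 that passed the filter had an adjusted p under 0.05, where 40 of 11096 genes, 0.36%, did (0.198% higher and 0.162% lower). The lowest adjusted p among the 8 was 0.258, for Cdh15. At an unadjusted p under 0.05 there was 1 of 8 (Cdh15), against 13.1% of all genes tested. The median difference of the 8 was 0.29, with 6 higher, against -0.002 over all genes tested, and it was 0.04 without knockout 1. In none of the 10 were the 4 control and the 4 knockout values free of overlap, which was the case for 8.31% of the genes tested. The plot of levels by library gives all 8 values of each gene.

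**Figure D1:**
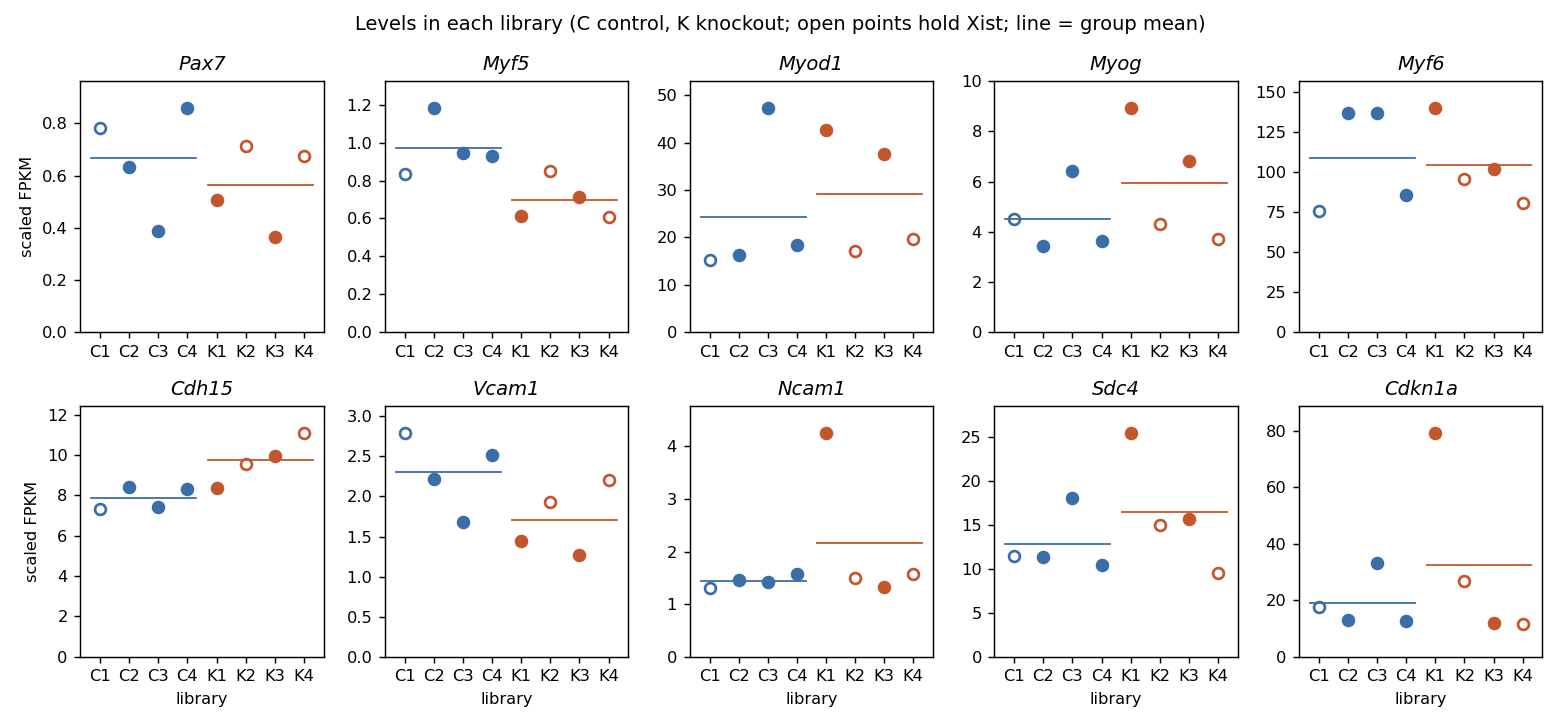
Scaled FPKM (vertical axes, from 0) of each of the 10 genes in control libraries C1 to C4 (blue) and knockout libraries K1 to K4 (orange); open points are the libraries with Xist and horizontal lines are group means of 4. The groups overlap in every panel, and K1 holds the highest value of Myog, Myf6, Ncam1, Sdc4 and Cdkn1a.

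The levels covered more than 100-fold between genes. Averaged over the 8 libraries, Myf6 was the most abundant at 106 scaled FPKM, followed by Myod1 at 26.8, Cdkn1a at 25.8, Sdc4 at 14.6, Cdh15 at 8.80, Myog at 5.22, Vcam1 at 2.01, Ncam1 at 1.80, Myf5 at 0.834 and Pax7 at 0.615. Myf6 exceeded Myod1, Myog exceeded Vcam1 and Ncam1 exceeded Myf5 in 8 of 8 libraries. The other neighbours in this order changed places in at least 1 library: Myod1 exceeded Cdkn1a in 5 of 8, Vcam1 exceeded Ncam1 in 6 of 8, and Cdkn1a over Sdc4, Sdc4 over Cdh15, Cdh15 over Myog and Myf5 over Pax7 held in 7 of 8.

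Pax7, the paired-box factor that specifies and maintains satellite cells, was among the lowest of the genes. It stood at 0.781, 0.633, 0.388 and 0.859 scaled FPKM in controls 1 to 4 and at 0.505, 0.712, 0.365 and 0.676 in knockouts 1 to 4. The values of the genotypes were interleaved, with the lowest in knockout 3 and control 3. The means were 0.665 ± 0.207 and 0.564 ± 0.161 (SD, n = 4 each). As Pax7 did not reach the filter, its difference comes from the fit without a filter, where 0.0411% of 19474 genes were called: -0.09, with a 95% interval from -0.34 to 0.17 (limma adjusted p = 0.805). In bulk tissue, fewer cells of a type and less RNA per cell cannot be told apart.

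Myf5, the earliest of the myogenic regulatory factors to be expressed and one that satellite cells keep at low levels, was also under the filter. The control libraries stood at 0.834, 1.18, 0.946 and 0.930 scaled FPKM and the knockout libraries at 0.612, 0.849, 0.715 and 0.606. All 4 knockout values lay below the control mean, but knockout 2 lay above control 1, so the groups overlapped. The difference was -0.22 (95% interval -0.39 to -0.05) in the fit without a filter, with an unadjusted p of 0.0177, as for 11% of genes there, and a limma adjusted p of 0.324. In the Xist-adjusted fit it was -0.21 (limma adjusted p = 0.283) and in the 5 libraries without Xist -0.27 (0.414).

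Myf6 lies next to Myf5 on chromosome 10. In mm10 Myf5 spans 107482908 to 107486134 and Myf6 spans 107492860 to 107494729, a gap of 6725 bases. Myf6 is the member of the family that prevails in adult fibres, and its level was between 90.9 and 228 times that of Myf5 in each library. Controls stood at 75.8, 136, 137 and 85.7 scaled FPKM and knockouts at 140, 95.3, 102 and 80.7. The range was almost the same in both genotypes, with means of 109 ± 32.4 and 104 ± 25.2 (SD, n = 4 each). The difference was -0.04, with a 95% interval from -0.57 to 0.50 (limma adjusted p = 0.964), and its sign turned without scaling, with quantile normalization and in the Xist-adjusted fit, where it was 0.051, 0.063 and 0.092.

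Myod1, the factor that commits activated satellite cells to the myogenic path and that fast fibres also transcribe, lies on chromosome 7 (46376474 to 46379092). Controls 1, 2 and 4 stood at 15.2, 16.2 and 18.3 scaled FPKM and knockouts 2 and 4 at 17.0 and 19.6. Control 3, knockout 1 and knockout 3 stood at 47.4, 42.8 and 37.6. The libraries thus fell into 2 sets with no value between 19.6 and 37.6, and each set held both genotypes. The genotype means were 24.3 ± 15.4 and 29.3 ± 12.8 (SD, n = 4 each), and the difference of 0.32 had a 95% interval from -0.61 to 1.24 (limma adjusted p = 0.797). It was 0.68 without control 3, where 0.0362% of genes were called, and 0.10 without knockout 1, where 0.0547% were (limma adjusted p 0.447 and 0.944). It was 0.54 in the Xist-adjusted fit (adjusted p = 0.397) and 0.70 in the 5 libraries without Xist (0.541).

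Myog, or myogenin, which drives terminal differentiation and rises in denervated fibres, lies on chromosome 1 (134290004 to 134292548). Controls stood at 4.50, 3.44, 6.41 and 3.62 scaled FPKM and knockouts at 8.94, 4.31, 6.84 and 3.70. The 3 highest values were again in knockout 1, knockout 3 and control 3. The difference was 0.30 (95% interval -0.28 to 0.88, limma adjusted p = 0.667). It was 0.11 without knockout 1 (adjusted p = 0.891), 0.42 in the Xist-adjusted fit (0.369) and 0.72 in the 5 libraries without Xist (0.330).

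The 250 bases upstream of Myog are shown because this promoter is a textbook meeting point of the factors listed here, and those of Chrna1, the acetylcholine receptor alpha subunit gene, because its levels ran with those of Ncam1 and Myog in knockout 1 as described below. Both are from RefSeq on GRCm38.p6, the assembly of mm10. Capitals mark E-boxes, searched as CANNTG, and MEF2-type motifs, searched as CTANNNNTA, each on both strands.
Myog, chr1:134289754-134290003, + strand: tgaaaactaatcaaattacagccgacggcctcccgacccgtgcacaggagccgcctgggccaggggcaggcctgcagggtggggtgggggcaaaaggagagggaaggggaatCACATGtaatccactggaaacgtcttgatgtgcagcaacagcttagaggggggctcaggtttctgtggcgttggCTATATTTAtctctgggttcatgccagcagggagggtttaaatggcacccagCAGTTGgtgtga
Chrna1, chr2:73580339-73580588, - strand: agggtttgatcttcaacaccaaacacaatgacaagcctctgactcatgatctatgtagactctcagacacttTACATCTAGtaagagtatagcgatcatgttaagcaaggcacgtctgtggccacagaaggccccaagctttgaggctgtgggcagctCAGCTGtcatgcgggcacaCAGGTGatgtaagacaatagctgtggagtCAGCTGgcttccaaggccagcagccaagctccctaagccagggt

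In the Myog window the E-boxes began at -138 and -12 and the MEF2-type motif at -64 from the gene's start. The Chrna1 window held 3 E-boxes, at -92, -73 and -44, of which 2 read CAGCTG, and 1 match to the MEF2-type pattern at -178. The pattern leaves its middle bases free: they are all A or T in the Myog match and include C in the Chrna1 match. Of 32851 promoter windows of this length, 66.2% held at least 1 E-box, 13.0% held CAGCTG and 19.0% held the MEF2-type motif, so a match is common and is given as a description. The promoter table held 6 of the 10 genes. Cdh15 had 3 E-boxes, the second listed start of Cdkn1a had 1, Myf5 had 2 overlapping MEF2-type matches and no E-box, and the windows of Pax7, Sdc4 and the first start of Cdkn1a had neither motif. Myod1, Myf6, Vcam1 and Ncam1 were not analysed here for motifs.

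Cdh15, or M-cadherin, joins satellite cells to the fibre beneath them. It stood at 7.31, 8.40, 7.41 and 8.30 scaled FPKM in controls and at 8.38, 9.54, 9.93 and 11.1 in knockouts. Each knockout value lay above the control mean, and only knockout 1 and control 2 kept the groups from separating. With means of 7.85 ± 0.574 and 9.74 ± 1.13 (SD, n = 4 each), the difference was 0.28 (95% interval 0.06 to 0.49), with an unadjusted p of 0.0175 and a limma adjusted p of 0.258. It was 0.27 in the Xist-adjusted fit (limma adjusted p = 0.194), 0.17 in the 5 libraries without Xist (0.581) and between 0.22 and 0.34 when any 1 library was left out. Pax7 and Myf5, which also mark satellite cells, had differences of the opposite sign, -0.09 and -0.22, and the 95% interval of Pax7 included 0. The part of the number of satellite cells in these levels was not tested.

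Vcam1, an adhesion molecule of satellite cells that binds integrin alpha4 beta1 and is also made by endothelium, stood at 2.80, 2.22, 1.68 and 2.51 scaled FPKM in controls and at 1.44, 1.93, 1.27 and 2.21 in knockouts. The 3 lowest values were in knockout 3, knockout 1 and control 3. The difference was -0.29 (95% interval -0.61 to 0.04, limma adjusted p = 0.450). In the Xist-adjusted fit it was -0.37 and its adjusted p 0.115, the lowest of any of the 8 genes under any setting tried; 2.01% of all genes passed in that fit. All 12 endothelial markers tested were lower in the knockouts, with 0 called, a median of -0.18 (-0.084 without knockout 2, with 2 of 12 higher, and -0.095 without scaling, with 3 higher) and a summed level of 387 to 444 scaled FPKM in controls against 321 to 450 in knockouts. Their part in the level of Vcam1 was not tested.

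Ncam1, the neural cell adhesion molecule of activated satellite cells, denervated fibres, nerve and Schwann cells, stood apart in 1 library. Controls stood at 1.30, 1.45, 1.43 and 1.57 scaled FPKM and knockouts 2 to 4 at 1.49, 1.33 and 1.58, while knockout 1 stood at 4.26. The difference of 0.29 (95% interval -0.25 to 0.83, limma adjusted p = 0.657) became 0.02 without knockout 1 (adjusted p = 0.952). The summed level of 10 Schwann cell markers was 95.3 scaled FPKM in knockout 1, inside the range of 87.5 to 136 over the controls. Their part in the level of Ncam1 was not tested. The gene spans chromosome 9 from 49502146 to 49799069 and overlaps the listed gene Gm11149, which was at effectively 0 FPKM.

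Sdc4, syndecan-4, a heparan sulfate proteoglycan that presents growth factors on satellite cells and on many other cell types, stood at 11.4, 11.3, 18.0 and 10.4 scaled FPKM in controls and at 25.5, 14.9, 15.6 and 9.57 in knockouts. Knockout 1 was highest, followed by control 3 and knockout 3. The difference of 0.29 (95% interval -0.32 to 0.90, limma adjusted p = 0.705) became 0.06 without knockout 1 (adjusted p = 0.937) and 0.40 in the Xist-adjusted fit (0.408).

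Cdkn1a, the cyclin-dependent kinase inhibitor p21, which accompanies cell cycle exit of myoblasts and is a target of p53, had the widest range of the 10 genes. Controls stood at 17.5, 13.2, 33.2 and 12.7 scaled FPKM and knockouts at 79.3, 26.9, 12.0 and 11.6. Knockout 1 held 6.84 times the level of the lowest library, knockout 4, and these are the highest and lowest values and carry the same genotype. The difference was 0.40, with a 95% interval from -0.92 to 1.71 (limma adjusted p = 0.823). Without knockout 1 its sign turned, to -0.17 (adjusted p = 0.900).

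**Figure D2:**
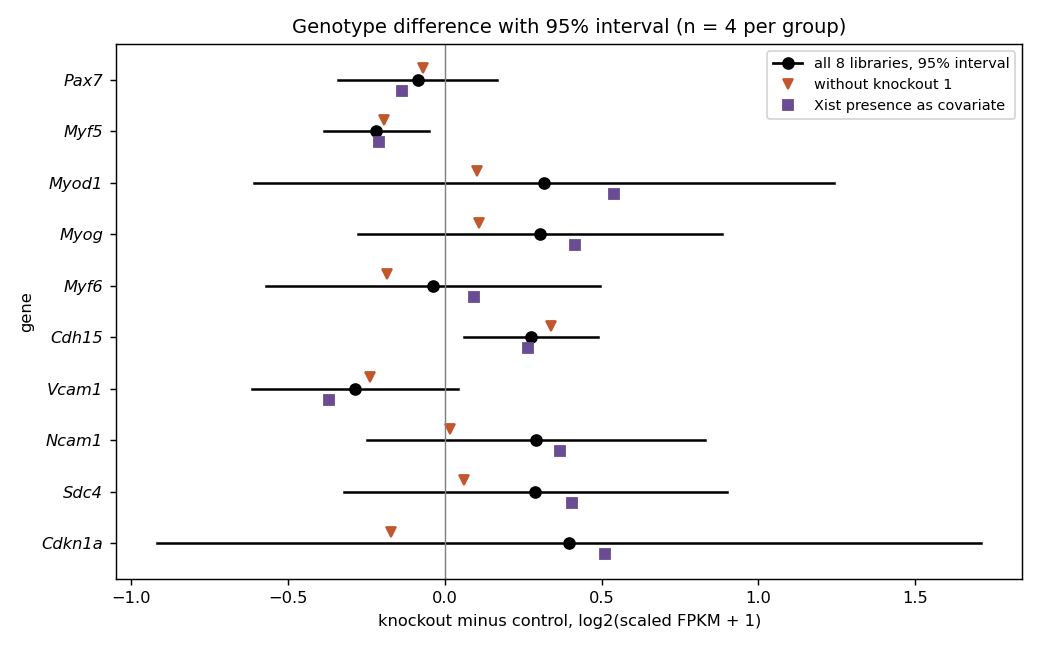
Knockout minus control on log2(scaled FPKM + 1) (horizontal axis) for each gene: points and bars are the limma estimate and its 95% interval over 8 libraries, triangles the estimate without knockout 1 and squares the Xist-adjusted estimate; Pax7 and Myf5 come from fits without the filter. Intervals of Myf5 and Cdh15 leave out 0 before adjustment, and the triangles of Ncam1, Sdc4 and Cdkn1a lie at 0.02, 0.06 and -0.17.

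Read across the libraries, 5 of the 10 genes shared 1 arrangement that did not follow genotype. In control 3, knockout 1 and knockout 3, Myod1, Myog and Sdc4 were each above all of the other 5 libraries, and Pax7 and Vcam1 were each below all of them. Among the 8 tested genes, which leave out Pax7, 3 were above, Myod1 by the choice of the set, and 1 was below. Over all tested genes these libraries were the 3 highest for 5.98% and the 3 lowest for 7.61%, so the arrangement is not rare in this data set. Myod1 exceeded Pax7 by 122 times in control 3, 84.7 times in knockout 1 and 103 times in knockout 3, and by 19.5 to 29.0 times elsewhere. None of the 3 libraries holds Xist. The other 5 are control 1, knockout 2 and knockout 4, which hold Xist, and controls 2 and 4, which lack it. The part of Xist in the arrangement was not tested. The set was seen in Myod1 and is not a group of the study, so no test was made between the sets.

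Clock genes were arranged in the same way. These genes were looked at after the arrangement had been seen. Arntl, which encodes the clock activator BMAL1, ranged over 1.18 to 3.25 scaled FPKM in the latter 5 libraries and was 11.1 or more in each of the 3. Dbp, a clock output gene that peaks when Arntl is low, stood between 27.4 and 41.6 in the 3 libraries and between 56.8 and 156 in the other 5. Of 13 tested clock genes, 2 were above and 7 were below in the 3 libraries with no overlap. The hour at which each animal was killed is not given in the labels, and the part of these differences in the levels of the 5 genes was not tested.

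**Figure D3:**
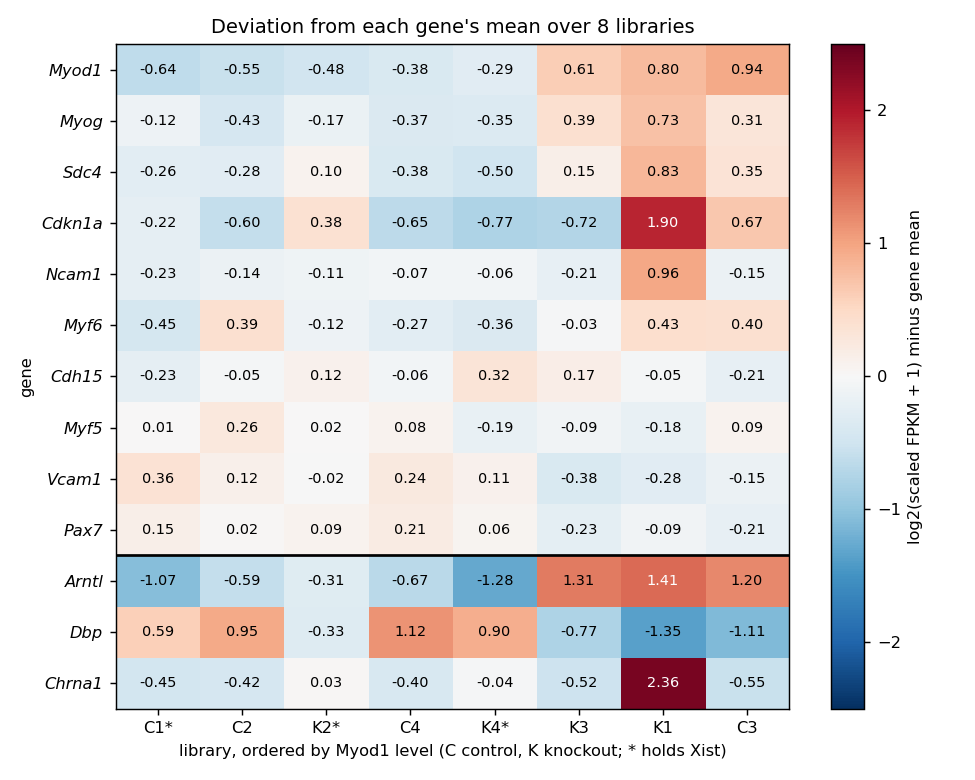
Deviation of log2(scaled FPKM + 1) from each gene's mean over 8 libraries (colour and printed value), with libraries ordered from the lowest to the highest Myod1 level (C control, K knockout, * holds Xist) and Arntl, Dbp and Chrna1 below the line. Myod1, Myog and Sdc4 are high and Vcam1 and Pax7 low in K3, K1 and C3, as Arntl is high and Dbp low there, while Cdkn1a, Ncam1 and Chrna1 peak in K1.

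Knockout 1 stood apart from the other 7 libraries in a further respect. It held the highest value of 5 of the 10 genes, Myog, Myf6, Ncam1, Sdc4 and Cdkn1a, whereas over all tested genes it was the highest library for 15.7%. Of 13 tested genes in a list of denervation-responsive muscle genes it was highest for 7. Chrna1 stood at 39.3 scaled FPKM there and between 4.35 and 6.98 in the other 7 libraries. Chrng, the fetal gamma subunit of the receptor, which was under the filter, stood at 2.91 against 0.0913 to 0.347. Sln, the calcium pump inhibitor sarcolipin, stood at 102 against 6.30 to 13.2, and Gadd45a, a stress gene that denervation raises, at 65.8 against 21.6 to 37.6. The adult epsilon subunit gene Chrne was also highest there, at 26.1 against 9.76 to 14.4. The ubiquitin ligase genes Trim63 and Fbxo32, at 125 and 63.3, were inside the range of the others. The genes named in this paragraph, apart from the rule for naming, were chosen after their values were seen. Summed over the 19 genes of the denervation list, the level was 512 scaled FPKM in knockout 1. It was higher in control 3, at 611, and the lowest control sum was 249.

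**Figure D4:**
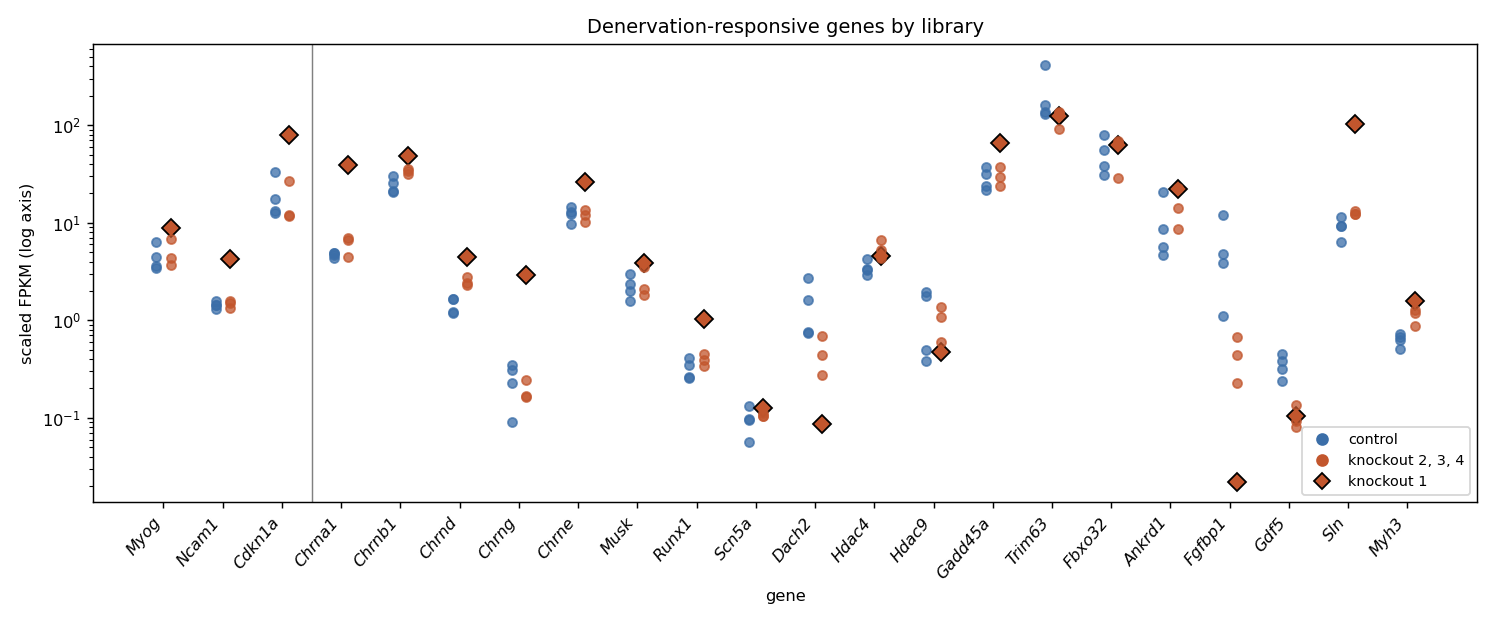
Scaled FPKM on a log axis of Myog, Ncam1 and Cdkn1a (left of the line) and of all 19 denervation-responsive genes listed, in controls (blue), knockouts 2 to 4 (orange circles) and knockout 1 (diamonds). Knockout 1 lies above the other 7 libraries for Chrna1, Chrng, Chrne, Sln and Gadd45a and within them for Trim63 and Fbxo32.

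Other genes of the myogenic programme are grouped by role, and their calls stand against 0.36% of all genes tested. Of 21 tested satellite cell genes other than the 10 (growth factor receptors, Notch pathway and surface genes) 0 rose and 0 fell; 15 were lower, with a median of -0.17 against -0.002 over all genes tested. Of 12 fibro-adipogenic markers 11 were lower as well and of 11 smooth muscle and pericyte markers 11, with medians of -0.16 and -0.27, and their part was not tested. These lists share genes with the satellite cell list: Cd34 is also a fibro-adipogenic marker and Notch3 also a pericyte marker. Of the 26 genes on the satellite cell list, Pax3, Calcr, Chrdl2, Megf10 and Tenm4 were under the filter. Without a filter its median was -0.12, with 7 of 26 higher. Cav1, Itgb1 and Cd34, which were tested, had control means of 151, 67.9 and 49.7 scaled FPKM, against 0.665 for Pax7. How far the list reflects satellite cells was not tested. The fibro-adipogenic median moved with single libraries: it was -0.052 without knockout 3, -0.093 without control 3, -0.086 without control 4, -0.26 without knockout 1 and -0.32 without control 1. The pair with the smallest p were the fibroblast growth factor receptor genes Fgfr1 at -0.35 and Fgfr4 at -0.34 (limma adjusted p 0.222 and 0.231). Among 30 tested partners, inhibitors and upstream factors of the myogenic factors, which include the E-proteins and the Id and Mef2 genes, Carm1 itself fell and no other passed (1 of 30), with a median of -0.01 that lay between -0.032 and 0.071 when any 1 library was left out. In the list of activation, growth factor and fusion genes, 15 were tested, Myh8, the perinatal myosin heavy chain, fell by 1.90 on the log2 scale (limma adjusted p = 0.0406), and none rose. Its 4 controls lay between 4.82 and 12.1 scaled FPKM and its 4 knockouts between 0.914 and 1.58. The call was lost in 11 of 18 alternatives, with a limma adjusted p of 0.109 with the replicate block and 0.162 in the 5 libraries without Xist, where the difference was -1.88. Of the fits that leave out 1 library, only that without control 1 kept the call (limma adjusted p = 0.0443), and the differences there ran from -2.06 to -1.67. The fusion genes myomaker and myomixer, listed by the older names Tmem8c and Gm7325, and the embryonic myosin Myh3 were under the filter.

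The 13 tested denervation-responsive genes had a median of 0.35, with 10 higher and 0 past the test. That median was 0.098 without knockout 1 and 0.54 without control 1 or without knockout 3. Fgfbp1, a fibroblast growth factor binding protein gene, averaged 5.43 ± 4.62 scaled FPKM among controls and 0.340 ± 0.278 among knockouts (SD, n = 4 each; limma adjusted p = 0.119). It entered the test only through its controls, and 1 of the 13 alternatives that held it, the Xist-adjusted fit, put it past the threshold (limma adjusted p = 0.0310). The receptor delta subunit gene Chrnd had a difference of 0.69 (limma adjusted p = 0.125). Its 4 knockout values, the lowest 2.30, lay above its 4 control values, the highest 1.66, as did the values of 8.31% of all genes tested in either direction.

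Of 18 tested p53 target and cyclin-dependent kinase inhibitor genes other than Cdkn1a, 0 passed and the median was -0.01. Knockout 1 was the highest library for 6 of them, Gadd45a included, which is on both lists. Eda2r, a p53-induced receptor gene, stood at 0.62 and the inhibitor Cdkn2d at -0.13 (limma adjusted p 0.169 and 0.501). Of 13 tested cell cycle genes 0 passed, with a median of -0.01; Mcm7, of the replicative helicase, stood at 0.27 and Cdk2 at 0.21 (limma adjusted p 0.183 and 0.432). Mki67 and Top2a, which mark dividing cells, were under the filter. Among 14 syndecan, cadherin, integrin and other adhesion genes, 1 of 14 was called, Cdh4, or R-cadherin, which fell from 1.34 ± 0.507 to 0.241 ± 0.0858 scaled FPKM (SD, n = 4 each), with a log2 difference of -0.90 (limma adjusted p = 0.0487), and none rose. Cdh4 entered the test only through its controls, which lay between 1.04 and 2.10. As its knockouts stayed under 1 scaled FPKM, it was tested only because its controls were above them. Without any 1 control it was no longer tested, and its call was lost in each fit without 1 knockout. The list median was -0.16, with 13 of 14 lower, and -0.085 without control 4 or without scaling. Sdc3, Itgb1 and Fgfr1 are on the satellite cell list as well and Cdh5 is an endothelial marker, so these lists are not independent.

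**Figure D5:**
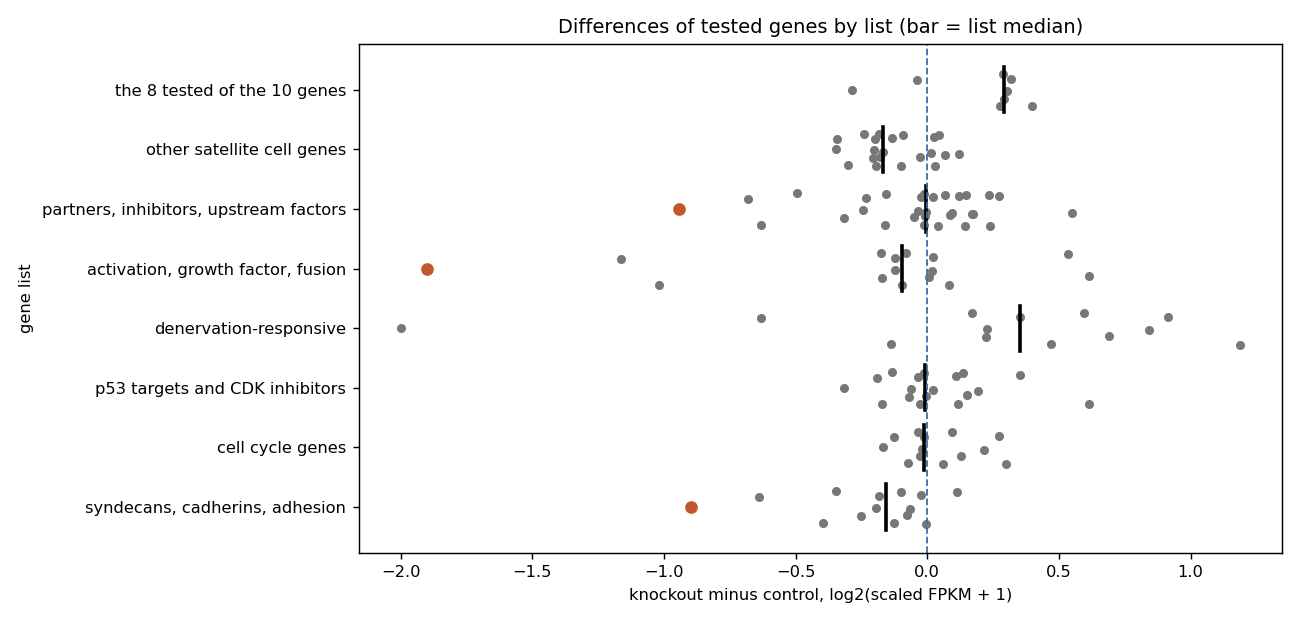
Knockout minus control on log2(scaled FPKM + 1) (horizontal axis) of each tested gene in the lists named on the vertical axis; orange points passed limma at an adjusted p under 0.05, bars are list medians and the dashed line is the median of all 11096 genes. The orange points are Carm1, Myh8 and Cdh4, of which Cdh4 entered the test only through its controls.

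The genes whose levels ran most closely with each of the 10 over the 8 libraries are given as a description, with Pearson's r as the measure. For Myf6 they were Snhg12, Timm9 and Psmd1 (r from 0.98 to 0.99), and for Vcam1 Mllt3, Slc25a16 and Tceal1 (0.98 to 0.99). For Myod1 they were Cabp1, Hint1 and 1700094D03Rik (0.96 each), over libraries that fall into 2 sets of Myod1 level and with no r within the sets, and for Myog Mad1l1, Klhdc9 and Kars (0.96 each). Cdh15 ran with B4galt7, Tmed3 and Arid1a (0.95 to 0.96), Sdc4 with Wdr12, Pnpla3 and Rrp1b (0.96 each) and Cdkn1a with Mphosph9, Ercc3 and Plekhf1 (0.93 to 0.94). For Ncam1 they were Chrna1, Sytl2 and Col11a2 (0.96 to 0.98), but without the 2 libraries farthest from the median of Ncam1 the values were 0.60, 0.45 and -0.10, so this likeness rests on those libraries. With 11096 genes to choose from over 8 libraries, high values are common: between 9 and 96 genes had r over 0.9 with each of the 8 tested genes.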

How the data were processed

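RNA of tibialis anterior from 4 control and 4 knockout mice was extracted with Trizol and made into TruSeq libraries, per the labels' protocols. STAR, Cufflinks and mm10 are named in the submitters' processing notes; the sources used here give neither versions nor annotation. The deposited values are FPKM, 1 table per library in the Cufflinks layout, per the file headers. Per the labels each replicate is 1 animal.

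Median-of-ratios factors from 0.904 to 1.07 divided the FPKM, which were analysed as log2(scaled FPKM + 1) with limma 3.58.1 in R 4.3.3 (trend on the mean). The filter was 1 scaled FPKM in at least 4 libraries; 23 genes whose status was not OK throughout were left out. FPKM are not counts, so no count model was used. The fit was tested on simulated data. Overlapping genes share reads, which Cufflinks divides by a model. Alternatives were another pseudocount, filter, scaling or variance model, leaving out libraries, the replicate number as a block, and Xist.

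The members, lists and tests were chosen with earlier results of these data known. Genes named are the 10 members, Carm1, and in each list the called genes (up to 2 per direction) otherwise the 2 of smallest p; others were chosen after their values were seen, as were the clock list and the fits of Pax7 and Myf5 that combine the missing filter with a further change. All else ran in Python 3.11.15 (pandas 2.3.3, scipy 1.17.1, matplotlib 3.10.9).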

Additional observations from a re-analysis of the deposited data

Results flagged for a closer look

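In 4 of 42 groups of 4 libraries, 1 library lay so far from the other 3 that its gap, as a share of the group's range, passed Dixon's 95% critical value. Chance gives about 1 in 20. The groups were the controls and the knockouts of each member and of genes named from the lists, partly by their p. Gaps were taken on scaled FPKM without a log. The share of such gaps over all tested genes was not determined, so the count is a description. Myod1 in control 3 stood at 47.4 scaled FPKM, against at most 18.3 in the other controls. Sdc4 in control 3 stood at 18.0 scaled FPKM, against at most 11.4. Ncam1 in knockout 1 stood at 4.26 scaled FPKM, against at most 1.58 in the other knockouts. Cdh4 in control 2 stood at 2.10 scaled FPKM, against 1.04, 1.04 and 1.20 in the other controls.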

How the results depend on the processing

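No member passed under any of the 19 alternatives fitted with limma, with 8 of the 10 genes tested in each except 6 at a mean of at least 5 FPKM and 10 without a filter; with the replicate block 0 of 8 passed. Pax7 and Myf5 were not tested with array weights, robust variances, the replicate block or the mean filter. The 40 genes called, 22 of them higher, became 8 without a filter, 15 at a mean of at least 5 FPKM, 103 with array weights, 223 with Xist as a covariate, 1 in the 5 libraries without Xist and 12 without knockouts 2 and 4 together. Without scaling 36 of 49 were higher. Leaving out 1 library gave between 2 and 27. The calls of Carm1, Myh8 and Cdh4 were lost in 12 of 19, 11 of 18 and 7 of 12 alternatives that held the gene. Their differences kept their size on the log2(scaled FPKM + 1) scale: -1.06 to -0.75 for Carm1, -2.06 to -1.67 for Myh8 and -0.99 to -0.80 for Cdh4.

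The sign of Myf6 turned without scaling (0.051), with quantile normalization (0.063), with Xist as a covariate (0.092), in the libraries without Xist (0.029) and without knockouts 2 and 4 (0.18), and its range without 1 library was -0.19 to 0.090. The range of Cdkn1a without 1 library was -0.17 to 0.72. The other 8 members kept their sign in every alternative that held them, and the causes were not tested. The deviations of same-numbered libraries correlated at -0.43, -0.19, 0.35 and 0.19. The deviations also hold the differences in Xist and clock genes, so these values do not settle whether the numbers pair the animals. The replicate block called 0 genes (1314 at an unadjusted p under 0.05). As no read depth is given, the precision of Pax7 and Myf5, both near or below 1 FPKM, is not known.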

Other observations

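Tendon markers summed to 52.7 to 125 scaled FPKM in the knockouts, highest in knockout 1, and to 35.4 to 90.3 in the controls. Lymphocyte markers, of which 4 of 9 were at 0 in at least 1 library, were also highest in knockout 1. They summed to 2.94 to 9.31 in the knockouts and to 1.43 to 2.59 in the controls, without overlap, as were 8.31% of single genes tested. Of the 9 markers only Cd3e passed the filter. In the fit without a filter the median difference of the 9 was 0.006, with 6 of 9 higher. The 1 lymphocyte marker tested had a difference of 1.36, not called, and of 1.11 without knockout 1. In the Xist-adjusted fit it was 1.48 and called. Knockout 1 was also the highest library for 4 of 8 tested macrophage markers. Summed levels in controls and knockouts were 695 to 1161 and 577 to 923 scaled FPKM for fibro-adipogenic cells, 1406 to 1641 and 1249 to 1567 for smooth muscle and pericytes, 45.0 to 78.6 and 39.2 to 72.9 for macrophages, 179 to 308 and 198 to 426 for blood cells, and 891 to 1121 and 663 to 1023 for adipocytes. The part of these differences in the levels of the 10 genes was not tested. Of the 7 adipocyte markers Adipoq, Plin1, Cidec and Lep were under the filter, so their sum comes mainly from Fabp4, Retn and Cfd. Des, on the smooth muscle and pericyte list, is also on the activation, growth factor and fusion list. The sums need not measure the named cells alone.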
